A study of Mus musculus with 3 samples.

Results

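The cells described here are cycling thymic fibroblasts, the dividing mesenchymal cells of the mouse fetal thymus, in single-cell RNA sequencing of thymic lobes from C57BL/6 embryos at E13–E13.5. A barcode was first kept if it had at least 200 genes and 2000 unique molecular identifiers (UMIs, each marking 1 captured RNA molecule), under 20% of its UMIs on mitochondrial genes and under 5% on hemoglobin genes. A kept cell was called a fibroblast with at least 1 UMI of Pdgfra, at least 1 UMI of Prrx1 or Tcf21, and no UMI of Epcam, Ptprc or Cdh5. It was called cycling with a UMI of at least 4 of 5 cell cycle genes, Top2a, Mki67, Cenpf, Birc5 and Tpx2. By this rule 1115 of 16365 kept cells, and of 24616 barcodes in all, were cycling fibroblasts.

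The study compared 1 droplet library each of control (Tbx1+/+), Tbx1neo2/neo2 and Foxn11089/1089 thymuses, all whole lobes dissociated with trypsin and not sorted. The neo2 allele carries a neomycin cassette in an intron of Tbx1, the transcription factor gene behind the thymic defects of 22q11.2 deletion syndrome, and lowers its expression. The 1089 allele is a small deletion in Foxn1, the transcription factor gene that thymic epithelial cells need. Both mutations are present in every cell of the embryo, and the number of embryos behind a library is not given. Below, values given as 3 numbers are in the order control library, library labelled Tbx1neo2/neo2, Foxn11089/1089 library.

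Fibroblasts of the fetal thymus derive largely from the neural crest. They form the capsule and the septa of the lobe, lay down collagen-rich matrix, and supply growth factors such as Fgf7, Fgf10 and Igf1 to the thymic epithelium. In dividing cells, genes for DNA replication are transcribed in S phase under E2F factors, and histone genes are transcribed in S phase too. Genes for the mitotic spindle peak in G2 and M phase under the DREAM and MuvB complexes with B-Myb and FoxM1. The latter act through the CCAAT box and the cell cycle genes homology region, or CHR.

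The control library gave 182 cycling fibroblasts, the library labelled Tbx1neo2/neo2 314 and the Foxn11089/1089 library 619, which were 3.67%, 8.77% and 7.91% of the kept cells. They were compared mainly with the 369, 490 and 870 fibroblasts that had no UMI of any of the 5 cycle genes. These are called fibroblasts without cycle genes, since they can include cells in G1 or early S phase. Cycling fibroblasts held more RNA, with a median of 13959, 34920.5 and 19560 UMIs against 9021, 22468.5 and 11925, and the rule needs UMIs of several genes, so depth bears on who is chosen. The median number of detected genes was 3612.5, 6153 and 4546 against 2764, 5090.5 and 3471.5, and mitochondrial UMIs made up 2.55%, 5.80% and 5.30% against 2.86%, 6.69% and 5.99%. Scrublet marked 7, 25 and 55 of the cycling fibroblasts as likely doublets (3.85%, 7.96% and 8.89%), and 1, 4 and 15 of the fibroblasts without cycle genes (0.271%, 0.816% and 1.72%). No barcode was a cycling fibroblast in more than 1 library, while 9, 9 and 12 kept barcodes were shared by each pair of libraries.

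Levels are given as CPM, the UMIs of a gene summed over the cells of a class in a library, per 1000000 UMIs of that class. The targeted genes were low in cycling fibroblasts. Over all kept cells Tbx1 had 114, 642 and 1029 UMIs, or 1.47, 5.04 and 6.37 CPM, so it was not lower in the library labelled Tbx1neo2/neo2 than in the control. The library counts 3′ ends, and the libraries differ in the cells they hold, with fibroblasts at 16.3%, 37.7% and 29.1% of kept cells. Whether this level reflects the allele was not tested. In cycling fibroblasts it had 7, 29 and 27 UMIs (2.77, 2.56 and 2.16 CPM). Foxn1, an epithelial gene, had 40.3, 36.9 and 90.8 CPM over all kept cells but only 3, 10 and 23 UMIs in cycling fibroblasts. Neither gene separated the libraries within these cells beyond a few UMIs.

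The fibroblast label was read beside markers. Pdgfra, Prrx1 and Tcf21 chose the cells, so their levels describe the cells and do not check the label. Pdgfra, the receptor used in the rule, was at 200.4, 220.2 and 251 CPM in cycling fibroblasts and 290.2, 315 and 331 CPM in those without cycle genes. Every cell needs at least 1 Pdgfra UMI and the classes differ in depth, so these levels are not read as a difference between them. Prrx1 was at 238, 246 and 468 CPM, and Tcf21 at 412, 128 and 214 CPM against 255, 78.9 and 127. Of the cycling fibroblasts, 34, 117 and 174 were chosen by Prrx1 without Tcf21, 17, 4 and 7 by Tcf21 without Prrx1, and the other 131, 193 and 438 by both. Markers outside the rule were high as well, with Col3a1 at 1874, 2197 and 2311 CPM, Lum at 1019, 574 and 1228 CPM and Twist1 at 229.7, 164 and 293 CPM. The marker lists of epithelial, endothelial and hematopoietic cells each summed to under 40 CPM in cycling fibroblasts of every library, with the endothelial gene Pecam1 at 0.792, 1.24 and 1.44 CPM and Krt8, a keratin, at 7.52, 5.93 and 4.55 CPM. Other lists were higher. The 8 pericyte and smooth muscle genes summed to 470.4, 1611 and 511 CPM, the 8 red blood cell genes to 226, 249.7 and 1542 CPM and the 5 cartilage genes to 34.1, 218 and 74.4 CPM, and their part in the results was not tested. To set a background for free RNA, red blood cell barcodes, with at least 50% hemoglobin UMIs, were put through the same Pdgfra and Prrx1 or Tcf21 gate. Of these, 1 of 439, 2 of 374 and 12 of 2244 passed (0.228%, 0.535% and 0.535%).

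The promoters of the genes that mark these cells are shown because 2 short motifs recur in them. The sequences are the 160 bases before the RefSeq start site on GRCm38.p6, 5′ to 3′ on the strand of the gene, and capitals mark matches of 3 motifs on either strand. The CHR was searched as TTTGAA and, since either base is found at its centre, as TTTAAA too. The CCAAT box was searched by its name letters. E2F matches were TTTCCCGC, TTTCGCGC, TTTGCCGC and TTTGGCGC. Top2a, the topoisomerase used in the rule, Plk1, a mitotic kinase, and Cdc20, the activator of the anaphase-promoting complex, stand for G2 and M phase. Cdk1, the mitotic cyclin-dependent kinase, had all 3 kinds of match, Mcm5, a subunit of the replicative helicase, stands for S phase, and Sfrp2, a secreted Wnt modulator that was lower in cycling fibroblasts, had none. The windows are Top2a chr11:99024190-99024349 (minus strand), Plk1 chr7:122159275-122159434 (plus strand), Cdc20 chr4:118437344-118437503 (minus strand), Cdk1 chr10:69352913-69353072 (minus strand), Mcm5 chr8:75109349-75109508 (plus strand) and Sfrp2 chr3:83766161-83766320 (plus strand).
Top2a: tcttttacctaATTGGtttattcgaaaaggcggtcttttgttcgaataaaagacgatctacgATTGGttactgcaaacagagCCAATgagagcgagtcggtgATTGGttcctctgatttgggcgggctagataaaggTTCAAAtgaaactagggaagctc
Plk1: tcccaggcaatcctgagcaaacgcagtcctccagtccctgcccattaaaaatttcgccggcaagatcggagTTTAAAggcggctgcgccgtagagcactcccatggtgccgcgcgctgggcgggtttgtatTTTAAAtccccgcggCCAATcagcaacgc
Cdc20: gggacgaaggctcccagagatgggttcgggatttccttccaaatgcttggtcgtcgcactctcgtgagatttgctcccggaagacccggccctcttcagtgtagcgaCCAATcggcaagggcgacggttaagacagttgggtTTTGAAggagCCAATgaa
Cdk1: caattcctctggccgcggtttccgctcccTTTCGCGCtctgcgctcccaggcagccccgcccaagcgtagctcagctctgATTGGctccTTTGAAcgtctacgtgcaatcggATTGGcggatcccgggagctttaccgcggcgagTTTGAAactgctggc
Mcm5: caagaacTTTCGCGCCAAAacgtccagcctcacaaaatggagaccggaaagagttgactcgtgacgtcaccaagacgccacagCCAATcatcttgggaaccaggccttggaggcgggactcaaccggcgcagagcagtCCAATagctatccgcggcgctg
Sfrp2: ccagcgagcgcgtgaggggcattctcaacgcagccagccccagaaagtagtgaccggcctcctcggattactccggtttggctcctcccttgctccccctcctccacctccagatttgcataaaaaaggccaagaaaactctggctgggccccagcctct

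Over the 250 bases before the start, a CCAAT match was found in 27 of the 36 genes of the G2 and M phase list that had a RefSeq promoter (75%), and 18 (50%) had at least 2 such matches. Among all 27025 genes with a promoter these shares were 37.5% and 11.5%. A CHR match was found in 14 of the 36 (38.9%), against 28.1% of all genes, and CHR and CCAAT together in 13 (36.1%), against 11.2%. E2F matches were more frequent in the S phase list, with 9 of 31 genes (29.0%) against 2 of 36 (5.56%) in the G2 and M phase list and 2.16% of all genes. All 4 rule genes with a promoter (Top2a among them) had a CHR match and 3 had CCAAT, with no E2F match. The motifs were not limited to these lists. Of 28 mesenchymal transcription factors 12 (42.9%) had CHR, 17 (60.7%) CCAAT and 8 (28.6%) both, and 5 of 21 genes of cycle entry and exit (23.8%) had E2F. Of the collagens, 4 of 15 had CHR, 6 had CCAAT and none had at least 2 CCAAT matches or an E2F match. CHR is a 6-base motif, so single matches are frequent in any window of this length, and these counts describe letters and not binding.

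The 5 rule genes chose the cells and are given without a test. In cycling fibroblasts Top2a was at 592, 789 and 759 CPM and Mki67, the Ki-67 gene, at 311, 441 and 462 CPM. Cenpf, a kinetochore gene, was at 438, 409 and 539.9 CPM, Birc5, or survivin, at 862, 518 and 685 CPM, and Tpx2, a spindle assembly factor, at 276, 321 and 420.2 CPM. Most fibroblasts had either few or all of the rule genes. All 5 were found in 137, 248 and 490 fibroblasts, 4 in 45, 66 and 129, and 3 in 41, 57 and 91.

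**Figure D1:**
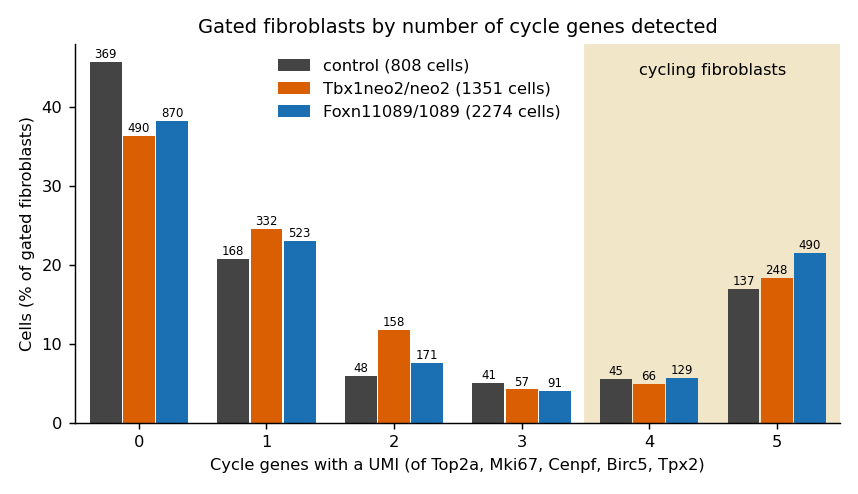
Percentage of gated fibroblasts (y axis) by the number of the 5 cycle genes with at least 1 UMI (x axis) in each library, with cell counts above the bars and the cycling classes, 4 and 5 genes, shaded. In each library more fibroblasts had 5 genes (17.0%, 18.4% and 21.5%) than 4 or 3.

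Cells just inside and just outside the threshold differed in degree. At 4 rule genes, the 43 genes of the G2 and M phase list, none of which is in the rule, summed to 5422, 3652 and 5387 CPM, and at 3 rule genes to 3271, 1228 and 2919 CPM. Ccnb1, the B-type cyclin of mitotic entry, was at 69.5, 47.6 and 69.9 CPM just inside and 45.1, 11.02 and 32.6 CPM just outside. At all 5 rule genes Ccnb1 reached 235, 300.1 and 314 CPM. The step from 4 to 5 genes was thus larger for Ccnb1 than the step from 3 to 4 in all 3 libraries.

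Of 808, 1351 and 2274 fibroblasts, 22.5% (95% exact interval 19.7% to 25.6%), 23.2% (21.0% to 25.6%) and 27.2% (25.4% to 29.1%) were cycling. With 1 library per genotype there was no test between genotypes, and intervals here and below cover counting error only. The share in the library labelled Tbx1neo2/neo2 was 1.03 times the control share (0.857 to 1.25). That in the Foxn11089/1089 library was 1.21 times (1.02 to 1.43), and 1.18 times (0.995 to 1.41) without likely doublets. Fibroblasts had medians of 9867.5, 25443 and 14047 UMIs, and when each cell was thinned to 5000 UMIs before the gate the shares were 13.9%, 13.7% and 18.9%. The rule genes together, over all gated fibroblasts and without regard to detection, were at 828 (809 to 848), 795 (786 to 804) and 1104 (1093 to 1116) CPM. On each measure the Foxn11089/1089 library had the highest value, and the other 2 libraries differed less from each other than from it.

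The same rule picked a larger share of epithelial cells, taken as Epcam-positive cells with no UMI of Pdgfra, Ptprc or Cdh5. It called 1070 of 2024, 469 of 752 and 1603 of 3569 cycling, or 52.9% (50.7% to 55.1%), 62.4% (58.8% to 65.8%) and 44.9% (43.3% to 46.6%). Epithelial cells were deeper, at medians of 16278, 42471.5 and 19725 UMIs. The order of the libraries differed from that in fibroblasts, since the Foxn11089/1089 library was lowest for epithelial cells and highest for fibroblasts.

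Cycling fibroblasts covered S phase through mitosis. Because these genes follow the rule genes, they are described without a p-value. The 38 genes of the S phase and replication list summed to 2807, 3716 and 3181 CPM against 1211, 1205 and 1216 CPM in fibroblasts without cycle genes, and 32 of the 38 were higher in each of the 3 libraries. Over all 12658 gene symbols tested, 25.2% were higher in all 3 libraries and 39.4% lower, which is the background for such sign counts here and below. Rrm2, the S phase subunit of ribonucleotide reductase, was at 139.8, 225 and 149.8 CPM against 6.00, 10.8 and 7.84. Tyms, thymidylate synthase, was at 295, 256 and 269 CPM against 44.4, 35.8 and 39.0. Not every replication gene separated the classes: Mcm2 was at 23.0, 77.0 and 42.3 CPM against 33.3, 54.7 and 40.0, and Ung, a uracil-DNA glycosylase, at 9.50, 26.2 and 12.5 CPM against 18.9, 16.9 and 16.7. The helicase gene Mcm5 was at 46.7, 115 and 78.1 CPM against 28.2, 42.4 and 35.7.

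The G2 and M phase list separated the classes more. It summed to 10196, 9718 and 11427 CPM against 516, 529.8 and 668 CPM. Of the 43 genes, 42 were higher in every library, with a median log2 difference of 5.93 over the list, against 1.44 for the S phase list and −0.04 over all genes tested. Hmmr, a spindle-associated hyaluronan receptor, was at 116, 165 and 221 CPM against 0.300, 0.441 and 0.661. Nusap1, a microtubule-binding spindle protein, was at 336, 250.4 and 298 CPM against 2.40, 1.24 and 1.61. The kinesin genes Kif2c and Kif4 had log2 differences of 7.46 and 7.35. Pttg1, the securin gene, was the member that did not rise, at 46.3, 40.1 and 54.8 CPM against 72.6, 52.2 and 64.1.

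Replication-dependent histone genes followed the same direction, although most of their mRNAs lack a poly(A) tail. Of 46 measured, 44 were higher in cycling fibroblasts in every library and 2, Hist3h2a and Hist3h2ba, were lower. Their sum was 6531, 1305 and 1584 CPM against 414, 179 and 294. Hist1h1b, a linker histone, was at 2569, 167 and 277 CPM. The control library stood apart in histone level in cycling epithelial cells too, where Hist1h1b was at 1347, 116 and 139.7 CPM. It also had more of Gm42418, a transcript that overlaps ribosomal RNA, at 8589, 235 and 176 CPM in cycling fibroblasts and 4607, 167 and 133 in cycling epithelial cells. Histone levels of cycling cells are therefore set against other fibroblasts only within a library, and the ratios between libraries given at the end carry this difference.

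Single cells were then thinned to 5000 UMIs, which left out 4, 2 and 3 cycling fibroblasts. The median cycling fibroblast had 12, 14.5 and 13 UMIs of the S phase list against 4, 5 and 5 in fibroblasts without cycle genes. The middle 80% of cycling fibroblasts ran from 4 to 28.3, 4 to 36 and 4 to 31. For the G2 and M phase list the medians were 50, 39 and 49.5 UMIs against 2, 2 and 3, and the 10th to 90th percentiles ran from 16.7 to 87.3, 12 to 93.9 and 19 to 102. Both lists thus varied several-fold among cycling fibroblasts of 1 library. The late G2 and mitosis genes Ccnb1, Cdc20, Plk1, Cenpa and Aurka had a median of 5, 3.5 and 4 UMIs together, and 22, 53 and 71 cells had none (12.4%, 17.0% and 11.5%).

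**Figure D2:**
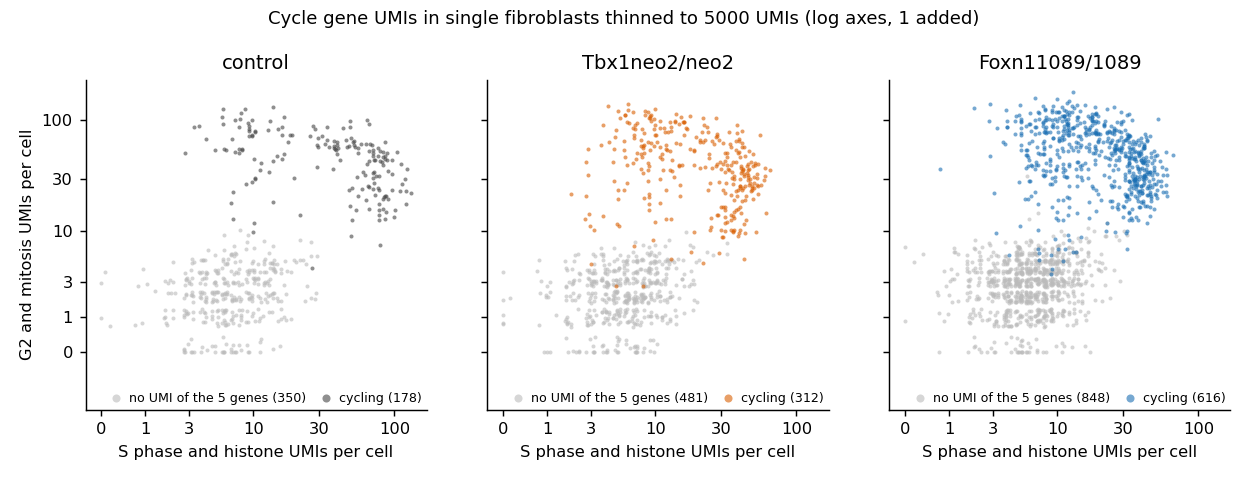
Each point is 1 fibroblast thinned to 5000 UMIs, with UMIs of the S phase list and histones on the x axis and of the G2 and M phase list on the y axis, both log scales with 1 added, 1 panel per library. Most cycling fibroblasts (178, 312 and 616 cells) lie above those without cycle genes (350, 481 and 848), with overlap at low G2 and M phase UMIs, and they spread over more than 1 decade of S phase and histone UMIs.

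In these thinned cells Ccnb1 was found in 50.6% (43.0% to 58.1%), 52.2% (46.5% to 57.9%) and 55.2% (51.2% to 59.2%) of cycling fibroblasts. In fibroblasts without cycle genes it was found in 0.571%, 1.46% and 1.53%. Without thinning the shares were 72.5%, 84.4% and 80.1% against 1.36%, 4.69% and 3.10%. Cdk1 was found in 82.6%, 69.9% and 79.1% of thinned cycling fibroblasts but also in 17.4%, 10.8% and 17.6% of thinned fibroblasts without cycle genes. Krt8, which a fibroblast should lack, was found in 2.25%, 2.88% and 1.95% against 2%, 2.70% and 2.12%, so the share of Ccnb1 in fibroblasts without cycle genes lay at or below that background and the share of Cdk1 did not.

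Likeness to the rule genes was also measured without classes. In each library the log CPM of every gene per cell was correlated with that of the 5 rule genes summed, over all 808, 1351 and 2274 gated fibroblasts, and Pearson's r was averaged over the libraries. Cells of a library share its depth and free RNA, and r is a description. Outside the lists used here, the likest genes were 2810417H13Rik (r = 0.83), Spc24 (0.81), H2afx (0.81), Spc25 (0.80) and H2afz (0.77), which include 2 kinetochore genes and 2 histone variants. Ckap2l, Sgol2a and Kif22 followed at 0.75 and Shcbp1 and Mxd3 at 0.74. Among list genes Cdca8 and Ube2c reached 0.85. The lowest values were small, −0.32 for Aprt and −0.35 for Eef1a1, a translation elongation factor.

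Cycling fibroblasts and fibroblasts without cycle genes of the same library were compared by the edgeR quasi-likelihood test on summed UMIs, with the library as a block and Benjamini-Hochberg adjustment. This test is read for genes outside the cycle, although cycle genes other than those of the rule were among the genes tested. The 3 libraries, which differ in genotype, were the replicates, and the 11 genes of the rule were not tested. Of 12664 genes, 2572 were called higher in cycling fibroblasts (20.3%) and 2521 lower (19.9%) at an adjusted p under 0.05. Without the block 440 were called higher and 58 lower, and 0 collagens, other matrix genes and transcription factors were called in either direction. The shares of 20.3% and 19.9% are the background for each list below. The 20.3% includes genes that follow the rule. Among them are 35 genes of the S phase list, 42 of the G2 and M phase list and 43 histone genes. The test compares cells that were chosen by cycle genes, and the lists were picked with results of these data known, so a list is described by counts and its median.

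Most collagens fell in cycling fibroblasts. Of 20 collagen genes 14 were lower (70%), 3 higher and 3 not called, with a median log2 difference of −0.50, which was −0.54, −0.54 and −0.31 within the 3 libraries. Col1a1, which encodes a chain of type I collagen, was at 1116, 1223 and 743 CPM in cycling fibroblasts and 2637, 3235 and 1268 CPM in those without cycle genes. All 3 cycling values lay below the 3 others. The log2 difference was −1.07 ± 0.10 (SE from the edgeR fit to 3 libraries, edgeR adjusted p = 2.3e-05). Each SE here and below was derived from the edgeR test statistic and is not the spread of the differences within the 3 libraries. Col1a2, the partner of Col1a1, was at 554, 1248 and 829 CPM against 1049.7, 2941 and 1188 (log2 −0.83 ± 0.11, edgeR adjusted p = 2.6e-04). The direction held in each library, but the size of the fall varied and the ranges overlapped. Col14a1, a fibril-associated collagen, had log2 −1.12 ± 0.15, and was not called without the library labelled Tbx1neo2/neo2.

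Col4a1, Col4a2 and Col18a1 were the 3 collagens that rose. Col4a1, a type IV chain of basement membranes, was at 256, 231 and 125 CPM against 180.2, 149 and 93.9 (log2 0.58 ± 0.05, edgeR adjusted p = 2.3e-05), higher in each library. Col4a2 was at 124, 101 and 60.1 CPM against 92.6, 78.2 and 52.6 (log2 0.38 ± 0.07). Col18a1, a basement membrane collagen whose product yields endostatin, was at 23.4, 31.3 and 16.1 CPM against 20.4, 21.9 and 13.6 (log2 0.42 ± 0.11). Col15a1, a related basement membrane collagen, was not called (log2 0.12 ± 0.26) and was higher in 1 of 3 libraries. Among cells of 10000 to 40000 UMIs 1 collagen was called higher, with Col4a2 and Col18a1 no longer called, and Col18a1 was not called without the library labelled Tbx1neo2/neo2.

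Of 33 other matrix genes 15 were lower, 2 higher and 16 not called, with a median of −0.19. Ogn, or osteoglycin, a small leucine-rich proteoglycan, was at 4.36, 55.2 and 10.5 CPM against 36.3, 191 and 51.4, and its log2 difference of −1.98 ± 0.13 was the lowest of the matrix genes tested (edgeR adjusted p = 1.3e-06). Mfap4, of elastic fibre microfibrils, was at 105, 309.6 and 134 CPM against 303, 592 and 359 (log2 −1.19 ± 0.09). Dcn, or decorin, which binds collagen fibrils, was at 382, 473 and 724 CPM against 805, 1066 and 1057 with no overlap (log2 −0.86 ± 0.10). Sparc, a collagen-binding glycoprotein, was at 352, 973 and 657 CPM against 618, 1733 and 1174 (log2 −0.76 ± 0.04). Lum, or lumican, was not called, at log2 −0.03 ± 0.06. The 2 called higher, Thbs1 (log2 0.31) and Fbln1 (0.16), were called neither by DESeq2 nor without the library labelled Tbx1neo2/neo2, and Fbln1 also not without the Foxn11089/1089 library.

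Genes of the growth factor and receptor list fell more often than they rose. Of 45 mesenchymal growth factors and receptors, 21 were lower and 4 higher, with a median of −0.24. Fgf18 was at 3.56, 6.72 and 5.27 CPM against 14.4, 19.2 and 17.5, and Fgf7, a ligand of the epithelial receptor Fgfr2b, at 1.98, 5.13 and 4.95 CPM against 9.89, 14.7 and 8.41. In both genes every cycling value was below every other value (log2 −1.60 ± 0.14 and −1.21 ± 0.23, edgeR adjusted p = 1.6e-05 and 0.0021). Fgf10, the other main epithelial ligand of this family, was at 26.9, 18.6 and 45.9 CPM against 39.3, 26.8 and 60.9 (log2 −0.41 ± 0.08, edgeR adjusted p = 0.0040).

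Igf1 was at 382, 262 and 537 CPM against 974, 663 and 1106, again without overlap (log2 −1.17 ± 0.07, edgeR adjusted p = 4.5e-07). Its binding protein gene Igfbp5 was at 117, 827 and 453 CPM against 422, 1539 and 1074 (log2 −1.18 ± 0.12). Cxcl12, the chemokine that draws thymic progenitors, was at 242, 401 and 181 CPM against 440.1, 694 and 401 (log2 −0.87 ± 0.06). The Wnt modulator Sfrp2, whose promoter is shown above, was at 211, 599 and 294 CPM against 882, 1150.1 and 747 (log2 −1.33 ± 0.15, edgeR adjusted p = 7.3e-05). These 4 genes were lower in each of the 3 libraries. Igf2, the related fetal growth factor, changed less, at 772, 589 and 511 CPM against 889.6, 681 and 642 (log2 −0.18 ± 0.04).

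**Figure D3:**
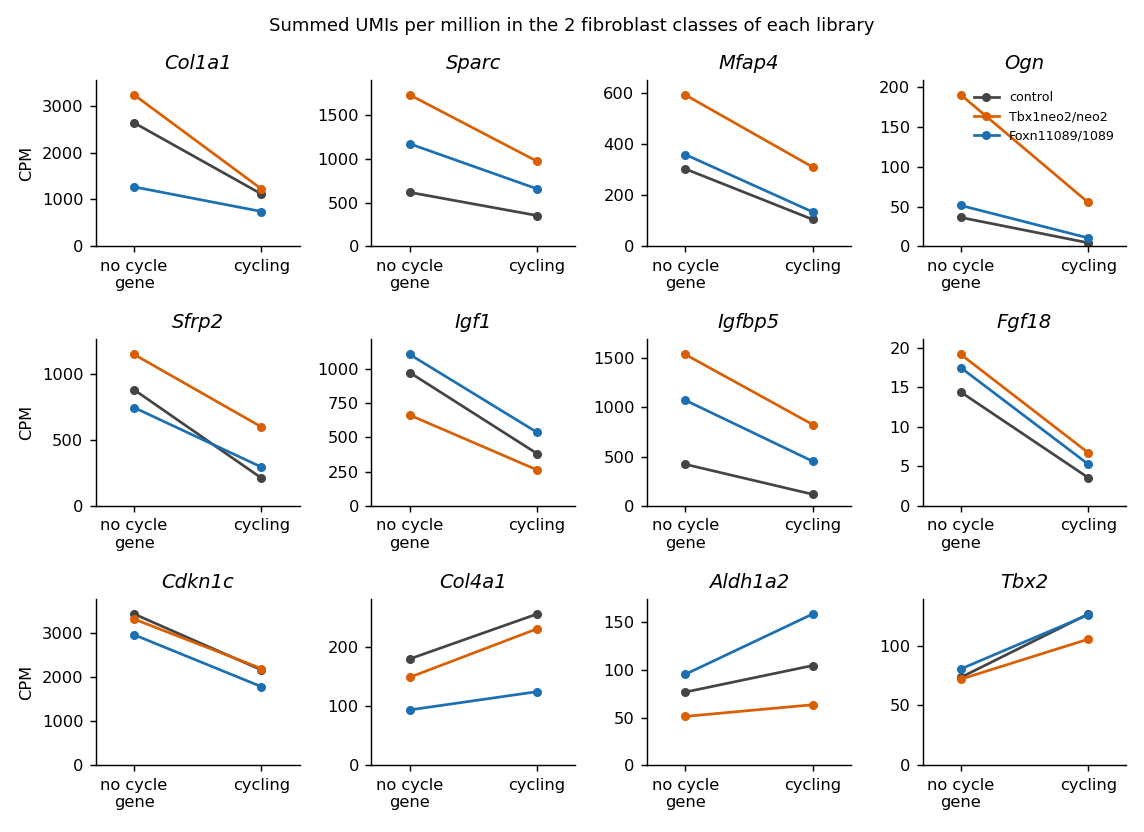
CPM of 12 genes (y axis) in fibroblasts without cycle genes and in cycling fibroblasts (x axis), with a line per library. Col1a1, Sparc, Mfap4, Ogn, Sfrp2, Igf1, Igfbp5, Fgf18 and Cdkn1c fall and Col4a1, Aldh1a2 and Tbx2 rise in all 3 libraries.

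The genes of the growth factor and receptor list that rose were Pdgfrb, Aldh1a2, Bmp4 and Igfbp3. Pdgfrb, the second PDGF receptor, was at 96.2, 138 and 60.9 CPM against 66.9, 94.8 and 45.9 (log2 0.55 ± 0.06, edgeR adjusted p = 8.4e-05). Aldh1a2, which makes retinoic acid, was at 105, 63.5 and 158 CPM against 76.8, 51.3 and 95.3 (log2 0.59 ± 0.09, edgeR adjusted p = 6.8e-04). Bmp4 and Igfbp3 rose by 0.23 and 0.30 on the log2 scale, although Igfbp3 was lower in the control library (50.3 against 56.7 CPM) and higher in the other 2, and neither was called by DESeq2 or without the library labelled Tbx1neo2/neo2 (Bmp4 also not without the Foxn11089/1089 library).

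A pair of short lists was set by fibroblast subsets of earlier work on these data. The Sfrp2 subset was labelled as resting there, so a fall of its genes in cycling fibroblasts is not independent of how the list was set. All genes of the Sfrp2 list, and Aldh1a2, are also counted in the matrix or growth factor lists above. In the Sfrp2 list 4 of 5 genes were lower (median −0.86) and in the Aldh1a2, Kcnj8 and Abcc9 list 2 of 3 were higher, Aldh1a2 and Abcc9 (log2 0.53 ± 0.11), while Kcnj8 was at 177, 105 and 64.6 CPM against 147, 74.6 and 75.02. In thinned cells Sfrp2 was found in 28.1% (21.6% to 35.3%), 52.9% (47.2% to 58.5%) and 41.7% (37.8% to 45.7%) of cycling fibroblasts against 60.3%, 73.4% and 69.0% of those without cycle genes. Aldh1a2 was found in 33.7%, 16.3% and 42.4% against 24.9%, 14.1% and 26.4%. Of the cycling fibroblasts, 5.06%, 6.73% and 11.5% had a UMI of both genes, 28.7%, 9.62% and 30.8% of Aldh1a2 alone, 23.0%, 46.2% and 30.2% of Sfrp2 alone, and 43.3%, 37.5% and 27.4% of neither at this depth.

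Levels were also read by the number of rule genes, which showed no even course between the ends. Col1a1 went from 2637, 3235 and 1268 CPM at 0 rule genes to 1070.2, 1295 and 757 CPM at 4 and 1128, 1209 and 740.4 CPM at 5. Sfrp2 went from 882, 1150.1 and 747 CPM at 0 to 554, 1234 and 612 at 1, and to 190.3, 573 and 267 at 5. Cells with 2 or 3 rule genes lay between these ends for Col1a1 in all 3 libraries. The S phase list did not follow this course. It was at 3140.1, 2765 and 3603 CPM at 3 rule genes, 3626, 4126 and 3396 at 4, and lower again at 5, with 2596, 3634 and 3139.9 CPM.

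**Figure D4:**
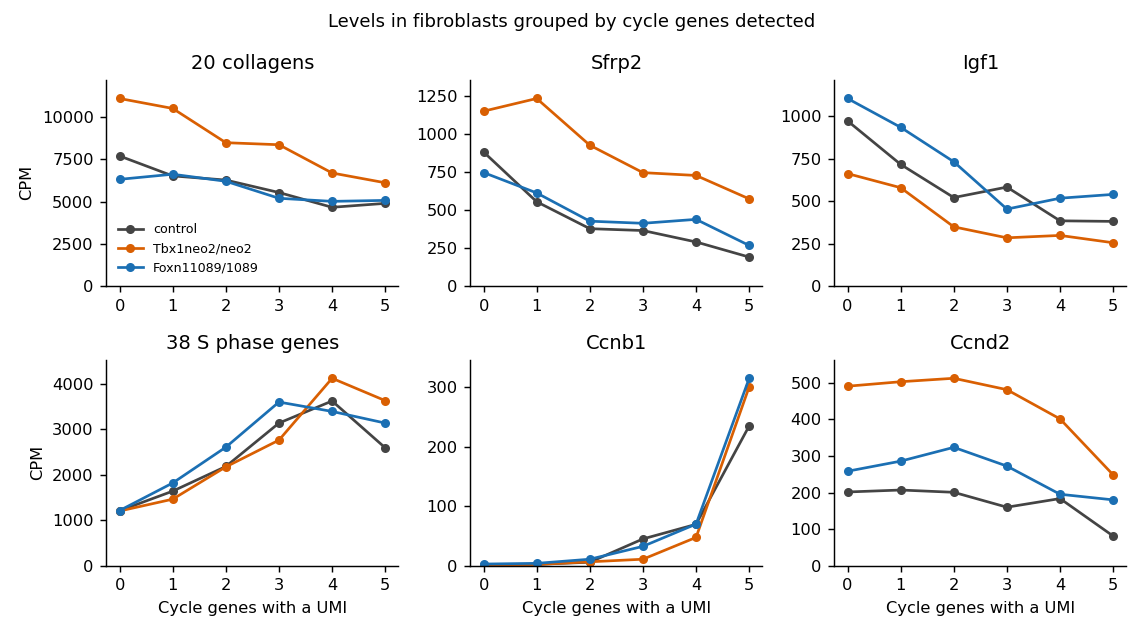
Summed CPM of the 20 collagens, Sfrp2, Igf1, the 38 S phase genes, Ccnb1 and Ccnd2 (y axes) by the number of rule genes detected in a fibroblast, 0 to 5 (x axis), with a line per library. Collagens, Sfrp2 and Igf1 are lower at 5 genes than at 0 in each library, Ccnb1 is highest at 5, and the S phase sum is highest at 3 or 4.

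Of 46 mesenchymal transcription factors 8 were higher and 13 lower, with a median of −0.17. Tbx2 was at 126, 105 and 126 CPM against 73.5, 72.0 and 80.5, with no overlap (log2 0.70 ± 0.07, edgeR adjusted p = 2.5e-05). Sox11, a factor of embryonic progenitors, was at 112, 196 and 141 CPM against 56.4, 166 and 96.3 (log2 0.57 ± 0.11), Msx1 at 34.1, 13.5 and 51.7 CPM against 30.6, 8.39 and 37.0 (0.53 ± 0.11), and Foxc1 at 34.8, 66.1 and 28.5 CPM against 22.8, 52.9 and 19.8 (0.49 ± 0.09). These rose in every library. Of those that fell, Tbx1 was at 2.77, 2.56 and 2.16 CPM against 8.39, 6.71 and 4.82 (log2 −1.27 ± 0.22, edgeR adjusted p = 0.0015), on 7, 29 and 27 UMIs. Ebf3 was at 49.1, 76.1 and 105 CPM against 78.3, 139 and 155 (−0.64 ± 0.08). Hoxa4 (−0.61) and Meox2 (−0.59) also fell, but Hoxa4 was not called without the Foxn11089/1089 library, and Meox2 was not called by DESeq2, without the control or without the Foxn11089/1089 library. Among cells of 10000 to 40000 UMIs 6 of these factors were called lower, and the median was −0.057.

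Genes of cycle entry and exit moved in both directions, with 13 of 26 higher, 5 lower and a median of 0.29. Cdkn1c, which encodes the inhibitor p57, stayed abundant in cycling fibroblasts at 2164, 2195 and 1785 CPM but below the 3434, 3319 and 2963 CPM of those without cycle genes (log2 −0.60 ± 0.02, edgeR adjusted p = 3.6e-08). Ccnd2, a G1 cyclin, was at 102, 274 and 182 CPM against 201, 490.2 and 258 (log2 −0.68 ± 0.08), and Ccnd3 fell by 0.32 on the log2 scale. Btg2 fell by 0.38 and was not called without the control or the Foxn11089/1089 library. Other inhibitors rose. Cdkn2c, or p18, was at 27.3, 26.9 and 32.0 CPM against 0.300, 0.530 and 0.472, Cdkn2d, or p19, at 170.3, 71.5 and 102 CPM against 37.5, 24.3 and 30.2, and Cdkn1b, or p27, at 65.3, 24.9 and 28.3 CPM against 26.7, 12.7 and 12.6 (log2 1.19 ± 0.11). The repressive E2F genes E2f8 and E2f7 rose by 4.13 and 2.94, and E2f2, an activator, by 3.90. The E2f genes and Cdkn2c are themselves cycle-regulated, so their change is not independent of the choice of cells.

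Of 15 genes of growth and ribosome biogenesis 10 rose and 1 fell, with a median of 0.38. Odc1, the rate-limiting enzyme of polyamine synthesis, was at 112, 195 and 188 CPM against 86.9, 93.1 and 84.4, a log2 difference of 1.01 ± 0.11 (edgeR adjusted p = 8.7e-05). The nucleolar genes Nolc1 and Dkc1 had log2 0.68 ± 0.06 and 0.63 ± 0.07. Mycn, at 7.13, 4.07 and 3.43 CPM against 2.70, 2.74 and 1.98 (log2 0.88), was not called without the control or the Foxn11089/1089 library. Eef1a1 was the member that fell, at 3419, 7319 and 6578 CPM against 4382, 9255 and 8541 (log2 −0.29 ± 0.02). The sum of the list, which Eef1a1 and Npm1 dominate, was lower in cycling fibroblasts in each library, opposite to its median.

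**Figure D5:**
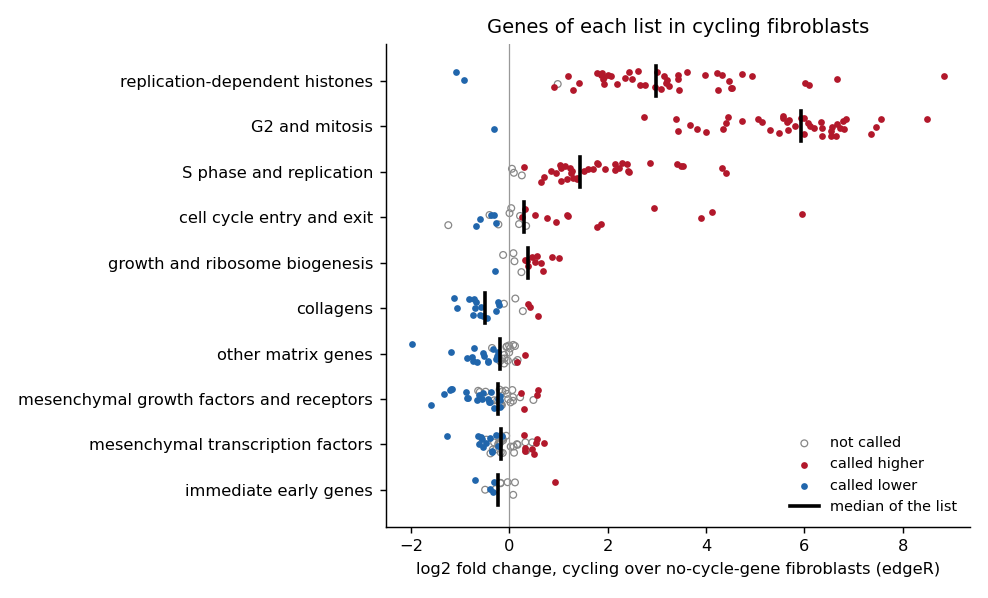
Log2 difference between cycling fibroblasts and fibroblasts without cycle genes (x axis) for each tested gene of each list (y axis), red where called higher, blue where called lower and open where not called, with a bar at the median. Genes of the histone, G2 and M phase and S phase lists follow the rule genes that chose the cells, so their calls are not read as a test. Medians run from 5.93 for the G2 and M phase list to −0.50 for collagens among the larger lists, beside −0.04 over all genes tested.

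Of 12 immediate early genes, which dissociation can induce, 4 were lower and 1 higher, with a median of −0.23. Atf3 fell by 0.70 on the log2 scale, Dusp1 by 0.41, Fosb by 0.34 and Jun by 0.32, while Fos was at 779, 661 and 934 CPM against 811, 724 and 1347 and was not called. Hspa1b, a heat shock gene, was called higher (log2 0.93) at under 5 CPM. Neither Dusp1 nor Hspa1b was called without the Foxn11089/1089 library, and Hspa1b was also not called by DESeq2 or without the library labelled Tbx1neo2/neo2.

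Markers of other cells were read beside these results. Of 8 pericyte and smooth muscle genes 4 were higher and 1, Myl9 (log2 −0.38), was lower. Acta2, smooth muscle actin, was at 112, 555 and 71.4 CPM against 63.9, 312 and 68.0 (log2 0.63 ± 0.12), Mcam was at 11.1, 27.4 and 3.11 against 7.50, 17.3 and 2.17 (0.67), Cspg4 at 12.7, 30.1 and 5.27 against 11.1, 20.04 and 4.91 (0.46), and Tpm2 rose by 0.33. Among cells of 10000 to 40000 UMIs the log2 difference was −0.021 for Acta2 and −0.058 for Cspg4, and Mcam was not called. Mcam was also not called without the library labelled Tbx1neo2/neo2, Cspg4 without that library or without the likely doublets, and Myl9 without the control library. The summed list was at 470.4, 1611 and 511 CPM against 514, 1150.4 and 556, higher in 1 library and lower in the others. The part of mural cells in these results was not tested.

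None of 5 tested epithelial genes, 8 hemoglobin and other red blood cell genes or the 1 neural crest glia gene was called in either direction by edgeR or DESeq2. At an unadjusted edgeR p under 0.05 the counts were 0, 1 and 0. Of 4 hematopoietic genes 2, Laptm5 and Tyrobp, were higher (log2 1.54 and 1.28) at levels of 0.531 to 9.98 CPM in cycling fibroblasts, and neither was called by DESeq2. Tyrobp, a myeloid adaptor, was higher in 2 of 3 libraries and was not called without the Foxn11089/1089 library. Of 3 endothelial genes Emcn was higher (1.06) and Kdr lower (−0.63), neither of which was called by DESeq2. Emcn was also lost without the library labelled Tbx1neo2/neo2, and Kdr without the control or the Foxn11089/1089 library. The 3 tested cartilage genes, Col9a1, Col2a1 and Sox9, were called lower (log2 −1.19, −0.79 and −0.27). Col2a1 was at 38.9 CPM in cycling fibroblasts of the library labelled Tbx1neo2/neo2 and under 1 CPM in the other libraries. Col2a1 was lower in 2 of 3 libraries and was not called by DESeq2, with at least 2 Pdgfra UMIs or among cells of 10000 to 40000 UMIs. Sox9 was not called in those 3 settings, with all 5 rule genes, against cells with 0 or 1 rule genes, or without the control library. Des, the 1 muscle gene tested, fell by 0.47 and was not called by DESeq2 or without the library labelled Tbx1neo2/neo2 or the Foxn11089/1089 library.

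Outside the lists, the genes with the largest rises at a mean of at least 20 CPM were again spindle and chromosome genes. Depdc1a was at 100.2, 87.0 and 119 CPM against 0.600, 0.265 and 0.283, Aspm at 92.3, 94.2 and 133 against 1.20, 0.441 and 0.189, and Esco2, a cohesin acetyltransferase, at 60.2, 61.9 and 87.5 against 0.300, 0.265 and 0.661. Fam64a, Ckap2l, Sgol2a, Ska1 and Mxd3 followed, with log2 differences of 7.37 to 6.64. The largest falls were those of Fam46a (log2 −1.55 ± 0.17), Scara5 (−1.45 ± 0.14), Grina (−1.44 ± 0.10) and Gm26771 (−1.44 ± 0.23). Scara5, a ferritin receptor, was at 4.36, 12.5 and 14.7 CPM against 22.5, 29.5 and 44.7, and Crabp2, which carries retinoic acid, at 17.8, 64.2 and 36.5 CPM against 70.2, 128 and 111 (−1.31 ± 0.13). Angptl1 (−1.32), BC029214 (−1.28) and Gsc (−1.26), a homeobox gene of the pharyngeal region, completed the 8.

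The response of fibroblasts was next set against that of epithelial cells chosen by the same cycle rule, as cycling minus no cycle gene in fibroblasts, minus the same in epithelial cells. Of 14146 genes 1 was called higher (0.00707%) and 0 lower (0%) by the edgeR interaction test with Benjamini-Hochberg adjustment. At an unadjusted p under 0.05 there were 475 higher and 933 lower, and DESeq2 called 51 higher and 10 lower. The gene called, Cks2, a subunit of cyclin-dependent kinases, was at 489.8, 535 and 771 CPM in cycling fibroblasts against 24.9, 27.6 and 36.5 in those without cycle genes. In epithelial cells it was at 312, 389 and 493 CPM against 37.6, 42.0 and 50.7. Its difference of differences was 1.07 ± 0.10 on the log2 scale (edgeR adjusted p = 0.023), and the call was lost when any 1 of the 3 libraries was left out. Cks2 is in the G2 and M phase list and follows the rule genes (mean r = 0.84), so its p-value is not independent of the choice of cells. All 5 rule genes were also higher in cycling fibroblasts than in cycling epithelial cells, Top2a at 592, 789 and 759 CPM against 407, 562 and 551. The part of the rule in the Cks2 difference was not tested. With a block for each library and lineage, chosen after the data were seen, 148 genes were called higher and 197 lower. The fit that called 1 gene gives both lineages of a library a shared effect. Library differences particular to a lineage therefore add to its spread, and its 1 call does not show that few responses differed.

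Some of the genes lower in cycling fibroblasts were also lower in cycling epithelial cells. Igfbp5 was at 20.8, 289.8 and 186 CPM in cycling epithelial cells against 97.1, 747 and 415 in epithelial cells without cycle genes, and Cdkn1c at 155, 258 and 336 CPM against 237, 603 and 377. Sparc was at 63.6, 219 and 256 CPM against 81.9, 417 and 379. For these 3 genes no difference between the lineages passed the interaction test, which does not show that the responses were equal. The epithelial cells without cycle genes numbered 305, 78 and 780. In them Col1a1, a fibroblast marker, was at 11.1, 328 and 34.8 CPM, against 7.40, 14.4 and 14.9 in cycling epithelial cells. The part of fibroblast RNA in the falls of the 3 genes was not tested.

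Between genotypes, cycling fibroblasts were compared as summed UMIs of 1 library against another, with no test. Over genes with at least 30 UMIs in the pair, the median log2 ratio to the control was 0.37 for the library labelled Tbx1neo2/neo2 and 0.21 for the Foxn11089/1089 library, beside 0.36 and 0.20 in fibroblasts without cycle genes, and genes are read relative to it. Of 11363 genes, 1182 (10.4%) were at least 2-fold above that median in the library labelled Tbx1neo2/neo2 and 912 (8.03%) at least 2-fold below. Of 11128 genes, 578 (5.19%) and 635 (5.71%) were so in the Foxn11089/1089 library.

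Few genes of the G2 and M phase and S phase lists differed between libraries by this measure. The same cycle rule chose the cells in each library, which limits how far these genes can differ. Of the 43 genes of the G2 and M phase list, 0 were at least 2-fold above and 3 below in the library labelled Tbx1neo2/neo2, and none in either direction in the Foxn11089/1089 library. Of the 38 S phase genes these counts were 2 and 1, and 0 and 1. Replication-dependent histones, for which the control library stood apart, differed more. Of 47 genes, 0 were above and 36 below in the library labelled Tbx1neo2/neo2, and 0 and 35 in the Foxn11089/1089 library. Matrix genes differed more often in the library labelled Tbx1neo2/neo2 than those of the G2 and M phase and S phase lists. There 6 of 20 collagens and 13 of 34 other matrix genes were at least 2-fold above, and 0 and 2 below. Of 45 growth factors and receptors 12 were above and 4 below, and of 45 mesenchymal transcription factors 13 and 3. Markers of other cells moved with them there, since 4 of 8 pericyte and smooth muscle genes, 3 of 3 cartilage genes and 3 of 4 skeletal muscle genes were at least 2-fold above, Myog and Actc1 of the last from no UMI in the control, and their part in the matrix ratios was not tested. In the Foxn11089/1089 library none of 19 collagens or 33 other matrix genes was above, and 2 and 3 were below.

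The highest ratios in the library labelled Tbx1neo2/neo2 were found in cycling fibroblasts and in those without cycle genes alike. Fbln5, an elastic fibre gene, was at 11.5, 339 and 16.2 CPM in cycling fibroblasts, a log2 ratio to the control of 4.88 (4.36 to 5.46), with 3.91 in fibroblasts without cycle genes. Eln, or elastin, was at 51.1, 953 and 39.7 CPM, or 4.22 (3.97 to 4.48) beside 3.57. Mecom (4.47 beside 3.72), Rgs5 (4.05 beside 3.42), Capn6 (3.91 beside 2.88) and Zfhx4 (3.57 beside 3.62) completed the 6 highest. Mural cell markers moved with these genes. Rgs5, a pericyte marker, was at 13.9, 229 and 14.8 CPM and was found in 5.62%, 25% and 4.06% of thinned cycling fibroblasts, Acta2 had a log2 ratio of 2.31 (2.14 to 2.49) beside 2.29, and Tagln, a smooth muscle gene, was at 32.9, 293 and 27.6 CPM. The part of mural cells in these ratios was not tested. Tcf21 was at 412, 128 and 214 CPM, lower than the control in both other libraries. It is a gene of the rule, and 34, 117 and 174 cells were chosen by Prrx1 without it. Its levels are therefore not read as a difference between genotypes.

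The highest ratios in the Foxn11089/1089 library included hemoglobin genes, with Hbb-y at 42.4, 50.2 and 472 CPM and Hbb-bs at 60.2, 103 and 477 CPM. Cycling epithelial cells of the 3 libraries showed the same order, with Hbb-bs at 64.0, 98.3 and 396 CPM, and the part of free red blood cell RNA was not tested. Gm10073 (log2 3.48, 3.08 to 3.90) and Tmem132c (2.60, 1.86 to 3.45) were the others outside that family. Gm10073 was at 20.6, 143 and 230 CPM in cycling fibroblasts and 21.5, 138 and 242 CPM in cycling epithelial cells. It was thus lowest in the control library in both lineages and raised in both other libraries. The lowest ratios in both libraries were those of Gm42418 and histone genes such as Hist1h3e, at 238, 11.1 and 14.5 CPM, for which the control library stood apart in epithelial cells as well. Lars2 was among the 6 lowest in the Foxn11089/1089 library, at 199, 18.4 and 13.3 CPM.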

How the data were processed

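Thymic lobes of control, Tbx1neo2/neo2 and Foxn11089/1089 embryos at E13–E13.5 had been sequenced as 1 3′ droplet library each. Cell Ranger 3.0.0 and mm10 are named for the authors' alignment and UMI counting, and the deposited values are raw counts per gene and barcode, without normalization. Seurat is named in their notes, and no cluster labels were used here. The libraries held 6410, 5759 and 12447 barcodes with 82936619, 137498422 and 204655055 UMIs, and the kept cells had medians of 14838, 29096 and 17144 UMIs. Exact intervals (Clopper-Pearson, Poisson or conditional binomial, 95%) cover counting error only.

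Cells were gated as described, and UMIs were summed per library and class. edgeR 4.0.16 (filterByExpr, TMM, quasi-likelihood test, library as a block, limma 3.58.1, R 4.3.3) was used for the tests, with DESeq2 1.42.0 as an alternative. The block is given by the design, since both classes of a pair come from 1 library, and the 3 libraries differ in genotype. Likely doublets, which stayed in, were the highest Scrublet scores, 0.8% per 1000 barcodes (scanpy 1.11.5). Python 3.11.15, numpy 2.4.6, scipy 1.17.1, pandas 2.3.3 and matplotlib 3.10.9 were used otherwise. Promoters came from RefSeq on GRCm38.p6. The test scripts were checked on simulated counts with known changes.

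The cell rule, gene lists and tests were chosen with earlier results of these data known. The genes named are, per list, up to 4 called with the largest change in each direction, the 8 highest and 8 lowest outside the lists at a mean of at least 20 CPM and of 1 sign in all libraries, those called in the interaction, the 6 highest and 6 lowest ratios between libraries (at least 150 UMIs in all, 15 in each), the 10 likest the rule genes, and Tbx1 and Foxn1. Values of other list genes are given as examples, chosen after they were seen. The alternatives changed the doublets, the mitochondrial limit, the number of cycle genes, the Pdgfra minimum, the depth of cells, the scaling, the filter, the tool, the block, the libraries, the weight of each cell and the denominator.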

Additional observations from a re-analysis of the deposited data

Results flagged for a closer look

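Cks2, which encodes a small subunit of cyclin-dependent kinases, was set apart because its response to cycling differed between fibroblasts and epithelial cells by the interaction test. Its log2 difference between cycling cells and cells without cycle genes was larger in fibroblasts by 1.07 ± 0.10 (SE, edgeR adjusted p = 0.023). It was higher in cycling than in other fibroblasts in 3 of 3 libraries. Cks2 is in the G2 and M phase list and follows the rule genes, so its p-value is not independent of the choice of cells. The call was lost in cells of 10000 to 40000 UMIs, without the block, and without any 1 of the 3 libraries. No group held 4 or more libraries, so no library was tested as an outlier.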

How the results depend on the processing

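The percentage of fibroblasts that were cycling was 17.0%, 18.4% and 21.5% with all 5 rule genes, 27.6%, 27.5% and 31.2% with at least 3, and 13.9%, 13.7% and 18.9% after thinning, and its ratios to the control stayed within the counting intervals in the settings run. Without the replicate block, 440 genes were called higher and 58 lower, all 498 of them called with it, and the lists lost most calls: collagens had 0 higher and 0 lower, other matrix genes 0 and 0, growth factors and receptors 0 and 1, transcription factors 0 and 0, cycle entry and exit 7 and 0, and growth and ribosome biogenesis 0 and 0. DESeq2 called 1721 genes higher and 1076 lower, of which 2796 of 2797 were shared with edgeR, with 0 other matrix genes and 2 growth factors and receptors higher, and a median of 0.34 for cycle entry and exit.

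Among cells of 10000 to 40000 UMIs, 1 collagen was called higher and 6 transcription factors lower, with medians of −0.25 for other matrix genes and −0.057 for transcription factors, and the log2 differences of Acta2 and Cspg4 turned to −0.021 and −0.058. With Pdgfra at 2 UMIs or more the other matrix median was −0.26, with 0 or 1 rule genes in the cells compared the median of cycle entry and exit was 0.36, and without the count filter 8 genes of that list were lower. The interaction test called 6 genes higher with 0 or 1 rule genes, 3 with RLE size factors, 10 without the filter, 51 with DESeq2 (10 lower), 0 among cells of 10000 to 40000 UMIs, 0 without the block, and 148 with a block per library and lineage (197 lower), a setting added after the data were seen.

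Leaving out each library in turn gave 1937 to 2600 genes higher, with 1640 lower without the Foxn11089/1089 library and up to 1997 without the control, and 0 to 4 genes in the interaction. The other matrix median ran from −0.31 to −0.19, with 1 to 3 genes higher. Transcription factors had 8 to 16 lower, the median of cycle entry and exit ran from 0.24 to 0.33, and growth and ribosome biogenesis had 1 to 2 lower. For these moves the cause was not tested, apart from the fewer cells, libraries or genes that some settings hold by construction. The other 291 values under these alternatives moved less than 1.5 times or less than their counting spread. Of the named genes' calls, 154 were lost over all settings, most often without the block (70 genes), and of these genes only Acta2 and Cspg4 changed sign. With 182 to 619 cells per library, genes under about 5 CPM rest on few UMIs, and a missing call there was not detectable at this depth.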
